A study of Mus musculus with 2 samples.

Results

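The replication-dependent histone genes supply the histones that package newly copied DNA, and here they were examined for H3K4me3 and H3K27me3 in pulp cells of the mouse incisor that had lately copied their DNA. Members were the protein-coding genes whose current or older symbols place them in the Hist1, Hist2, Hist3 and Hist4 groups. There were 67 such genes among the 21631 protein-coding genes of the autosomes and chromosome X. Of these, 63 were found by their current symbols and 4 by the older ones: H2aw (Hist3h2a), H2bu2 (Hist3h2ba), H4f16 (Hist4h4) and H4bc24 (Hist1h2br, an H2B gene by its older name). Pups of the CD1 strain aged 5 days received EdU, a thymidine analogue that is built into DNA as it is copied, at 3.3 µg per g of body weight. Incisor pulp was dissociated 24 h later and EdU-positive cells were sorted for chromatin immunoprecipitation. Each mark had 1 library, both from cells of the same strain, age, dose and time by their labels, and no input library was used for the marks. The sort selected cells by EdU and not by cell type, so the libraries average over all EdU-positive cells of the pulp.

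Canonical histone genes are short, without introns, and are transcribed mainly in S phase. Their messages end in a stem-loop bound by the protein SLBP in place of a poly(A) tail, and their transcription depends on NPAT, which gathers at the gene clusters in histone locus bodies. Core histones H2A, H2B, H3 and H4 form the nucleosome, and the linker histones H1 bind the DNA between nucleosomes. H3K4me3 is found at active and poised promoters, and H3K27me3 is written by Polycomb repressive complex 2.

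The members lay in 7 groups, taking members less than 100 kb apart as 1 group. Chromosome 13, the Hist1 cluster, held 54 genes in 4 groups: the first of 18 genes (chr13:21715711-21837530), the second of 5 (chr13:22035122-22043658), the third of 29 (chr13:23531044-23764412) and a pair, H2bc1 and H2ac1, also named Th2b and Th2a (chr13:23933725-23934913). The Hist2 group on chromosome 3 held 10 genes (chr3:96219885-96270192), the Hist3 pair lay on chromosome 11 and H4f16 alone on chromosome 6. By family there were 6 H1, 18 H2A, 18 H2B, 12 H3 and 13 H4 genes. Positions are on mm10 from RefSeq.

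The values are islands, stretches that the authors called as enriched, each with the height of its summit in the authors' units. Marked genes are those with an island over any base of the gene or of the 1 kb on either side. Heights are compared within a mark only, since no scale between the libraries is given in the sources used here. With 1 library per mark no difference was tested, no p-value is given, and the depth of the libraries is unknown. As a check of the label, all 8 mesenchymal genes examined (Msx1, Msx2, Pax9, Dlx5, Prrx1, Pdgfra, Vim and Thy1) had an H3K4me3 island, where 62.7% of all protein-coding genes had one. The first 6 of these also lay under an H3K27me3 island. The endothelial genes Cdh5 and Pecam1, the blood cell gene Ptprc and the glial gene Sox10 had no H3K4me3 island. The macrophage gene Cd68 (H3K4me3 height 59) and the epithelial genes Epcam (58) and Krt14 (8) had one. Among these genes of other cell types, only Sox10 (H3K27me3 height 72) and Epcam (45) lay under an H3K27me3 island. The part of other cell types in the values below was not tested.

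The promoters shown here, 250 bases before to 50 bases after the annotated start, bracket what the islands showed: the linker gene under the highest island (H1f4), linker genes without an island (H1f2 and the testis gene H1f6), H2A genes with an island (H2ac12) and without (H2ac1), an H2B promoter present in identical copies (H2bc23), and H4 genes with (H4c12) and without an island (H4c17). Sequences are from RefSeq, GRCm38.p6. Capitals mark CCAAT, the TATA-box letters TATAAA and the octamer ATTTGCAT, which binds Oct-1, on either strand.
H1f4, H3K4me3 height 117, chr13:23622509-23622808, minus strand: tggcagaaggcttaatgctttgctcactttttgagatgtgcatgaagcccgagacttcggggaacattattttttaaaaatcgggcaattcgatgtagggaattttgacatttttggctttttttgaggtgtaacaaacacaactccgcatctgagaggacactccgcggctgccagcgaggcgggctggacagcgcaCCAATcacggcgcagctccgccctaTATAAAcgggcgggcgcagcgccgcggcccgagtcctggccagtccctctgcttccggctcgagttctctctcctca
H1f2, no island, chr13:23738557-23738856, plus strand: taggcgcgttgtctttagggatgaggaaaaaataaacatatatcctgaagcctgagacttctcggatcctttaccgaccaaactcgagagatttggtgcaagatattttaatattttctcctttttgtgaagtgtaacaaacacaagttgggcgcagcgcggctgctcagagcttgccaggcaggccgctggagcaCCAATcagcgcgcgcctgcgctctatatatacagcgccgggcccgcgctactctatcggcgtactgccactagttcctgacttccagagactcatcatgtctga
H1f6, no island, chr13:23695561-23695860, plus strand: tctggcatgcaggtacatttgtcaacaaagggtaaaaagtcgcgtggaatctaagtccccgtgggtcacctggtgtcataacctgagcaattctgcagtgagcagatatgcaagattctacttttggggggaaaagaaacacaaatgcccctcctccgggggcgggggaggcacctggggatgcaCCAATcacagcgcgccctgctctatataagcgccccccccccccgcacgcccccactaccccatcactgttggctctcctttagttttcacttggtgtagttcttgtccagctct
H2ac12, H3K4me3 height 27, chr13:22035594-22035893, minus strand: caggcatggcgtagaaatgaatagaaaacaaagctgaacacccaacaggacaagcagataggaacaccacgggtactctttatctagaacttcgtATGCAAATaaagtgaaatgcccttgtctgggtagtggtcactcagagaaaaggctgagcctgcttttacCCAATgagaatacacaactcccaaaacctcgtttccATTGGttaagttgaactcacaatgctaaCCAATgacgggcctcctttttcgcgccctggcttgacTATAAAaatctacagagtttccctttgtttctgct
H2ac1, no island, chr13:23934187-23934486, plus strand: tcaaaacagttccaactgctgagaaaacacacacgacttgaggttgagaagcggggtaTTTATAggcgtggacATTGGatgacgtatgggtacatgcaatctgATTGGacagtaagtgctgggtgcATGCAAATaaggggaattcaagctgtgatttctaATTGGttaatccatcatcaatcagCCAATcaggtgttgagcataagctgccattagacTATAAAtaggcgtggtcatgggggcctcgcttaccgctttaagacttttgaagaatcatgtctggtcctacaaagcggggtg
H2bc23, no island, chr13:21810150-21810449, minus strand: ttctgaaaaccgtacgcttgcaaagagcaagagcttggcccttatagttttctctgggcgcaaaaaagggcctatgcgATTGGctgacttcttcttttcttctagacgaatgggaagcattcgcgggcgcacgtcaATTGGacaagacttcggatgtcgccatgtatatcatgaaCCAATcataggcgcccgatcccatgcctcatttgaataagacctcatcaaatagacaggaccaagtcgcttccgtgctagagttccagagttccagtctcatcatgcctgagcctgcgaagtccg
H4c12, H3K4me3 height 44, chr13:21750504-21750803, minus strand: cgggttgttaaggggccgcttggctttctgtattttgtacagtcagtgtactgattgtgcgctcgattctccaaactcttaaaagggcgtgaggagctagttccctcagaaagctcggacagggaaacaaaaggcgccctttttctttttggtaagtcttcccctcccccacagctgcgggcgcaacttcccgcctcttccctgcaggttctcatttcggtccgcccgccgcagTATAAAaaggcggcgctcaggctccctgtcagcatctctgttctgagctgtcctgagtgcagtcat
H4c17, no island, chr13:21811496-21811795, plus strand: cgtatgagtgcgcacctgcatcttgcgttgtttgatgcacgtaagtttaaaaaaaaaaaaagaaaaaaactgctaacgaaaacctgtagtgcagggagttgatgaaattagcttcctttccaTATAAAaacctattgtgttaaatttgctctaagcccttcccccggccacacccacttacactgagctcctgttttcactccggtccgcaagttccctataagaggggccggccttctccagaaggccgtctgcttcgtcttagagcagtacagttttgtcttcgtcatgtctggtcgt

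H3K4me3 lay at 41 of the 67 histone genes (61.2%, exact Clopper-Pearson 95% interval 48.5 to 72.9%), a share near that of all protein-coding genes, 62.7%. Against the 2441 protein-coding genes of up to 2000 bp, of which 14.1% had H3K4me3, the share was higher. These short genes were taken by length alone and include the 36 Vmn1r genes between the histone genes of chromosome 13, all without H3K4me3. H3K27me3 lay at 2 members (2.99%, interval 0.364 to 10.4%), where 25.2% of all protein-coding genes and 6.51% of those of up to 2000 bp had it. The share of the short genes lay inside the interval of the members. Thus 39 genes carried H3K4me3 only, 2 carried both marks, 0 carried H3K27me3 only and 26 carried neither. Intervals cover counting over genes only, and since neighbouring members share islands, they are too narrow.

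Where H3K4me3 was called at a histone gene, its island was low. The median height at the 41 marked members was 34 (interquartile range 23 to 44, range 13 to 117), and at all 13561 marked protein-coding genes it was 110 (interquartile range 61 to 150). The upper quartile of the histone genes thus lay below the lower quartile of all marked genes. Counted per gene, the median width was 5.20 kb at members and 4.20 kb at all marked genes. Wide islands shared by several members weigh more in the first value. Counted once each, the 22 islands at members had a median width of 3.90 kb, against 3.60 kb for all H3K4me3 islands. Among the islands with heights of 90 or more, the upper 50.3% of H3K4me3 islands, 2 lay at histone genes and marked 5 members (7.46%), against 39.6% of all protein-coding genes. For H3K27me3 the 2 marked members (2.99%) stayed in the upper 54.0% of its islands, heights of 12 or more, which marked 19.6% of all protein-coding genes. On the 300-base promoter alone, 37 of the 62 members with a listed promoter had H3K4me3 (59.7%, against 58.8% of all genes with one) and 2 had H3K27me3 (3.23%, against 17.4%). Histone genes were thus near the background in the share with H3K4me3 and below it in height.

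**Figure D1:**
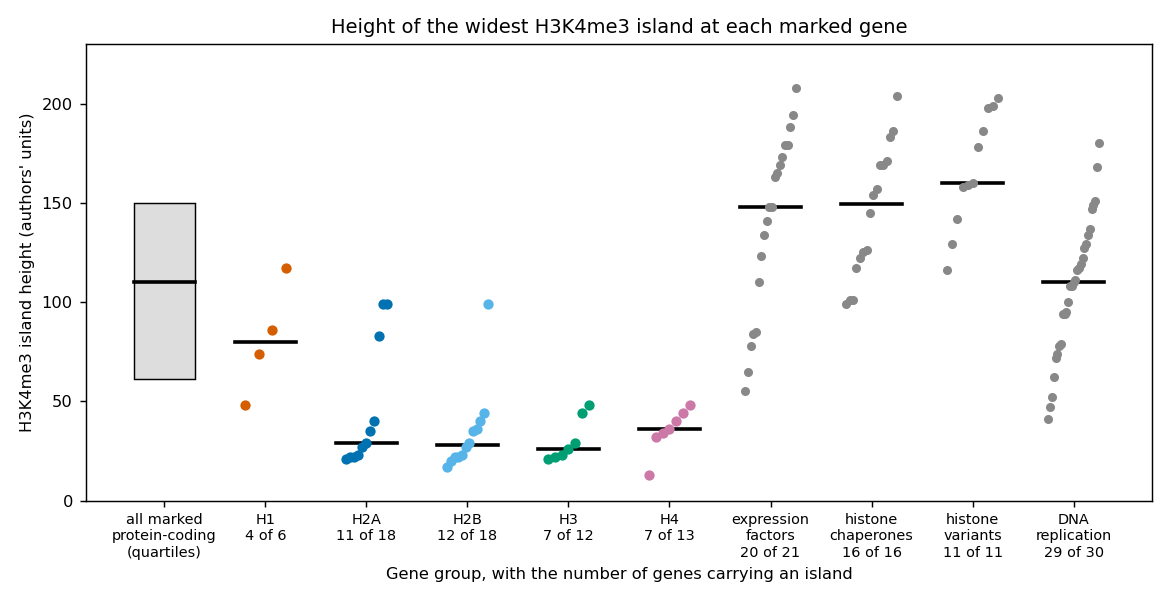
Height of the widest H3K4me3 island at each marked gene (authors' units, 1 point per gene), by histone family and for comparison lists; black lines are medians, the grey box spans the quartiles of all marked protein-coding genes, and counts below the names give the genes with an island. Core histone genes lie at 13 to 48, apart from those at 83 and 99, while the lists of expression factors, chaperones and histone variants have medians of 148, 149.5 and 160.

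The 41 marked genes shared 22 H3K4me3 islands, of which 12 spanned 2 or more members and 6 spanned 3 or more. Genes under 1 island therefore do not give separate values. The island with most members covered 5 genes on chromosome 13 (chr13:23569801-23577799, 8.0 kb, height 22): the H2A genes H2ac8 and H2ac7, the H2B genes H2bc8 and H2bc7, and the H3 gene H3c4. Other islands over 3 members were those of H2bc13, H2ac13 and H3c10 (5.20 kb, height 29), of H3c11, H2ac22 and H2bc22 (6.20 kb, height 23), and of H4c9, H2ac11 and H2bc11 (6.20 kb, height 40). The remaining ones covered H4c1, H3c1 and H1f1 (5.60 kb, height 48) and, on chromosome 3, H2ac21, H2ac20 and H2bc21 (5.20 kb, height 99). Core histone genes of different families thus lay under common islands. Summits lay mostly near the genes, in part because islands were taken within 1 kb of a member. Inside a member lay 17 of 22 summits, including those in the long models of H2bc6 (37455 bp) and H2bc4 (8282 bp). Within 500 bp of a member's start, as given by its listed promoter, lay 17 of 22. At H4c12, the promoter shown above, the summit was 7 bp from the start.

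H2A and H2B genes often stand head to head and share the sequence between their starts. Strands were known only for the 62 members with a listed promoter. Among these there were 10 pairs on opposite strands, pointing apart, with starts at most 500 bp from each other (164 to 281 bp). All 10 joined an H2A to an H2B gene. Members without a listed promoter could not enter a pair, among them H2bc21 beside H2ac20 and H2bc4 beside H2ac6, so the list may be incomplete. In 6 pairs both genes lay under 1 H3K4me3 island, with heights of 22 to 40. In the other 4 pairs neither gene had an island: H2ac15 with H2bc15, H2bc23 with H2ac23, H2ac24 with H4bc24, and H2bc1 with H2ac1. No pair had an island at 1 of its genes alone. The window largely fixes this, since the 1 kb on either side of a gene reaches well into its partner.

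Linker histone genes had higher islands than most core histone genes. H1f4 (Hist1h1e) lay under the highest island of all members (chr13:23619401-23623599, 4.20 kb, height 117), which stood above 62.3% of all H3K4me3 islands. H1f5 (Hist1h1b) had a height of 86, H1f3 (Hist1h1d) of 74 and H1f1 (Hist1h1a), whose island also covers H4c1 and H3c1, of 48. The median of these 4 genes was 80, and the summit of each of their islands lay inside the H1 gene. H1f6 (Hist1h1t), which encodes the testis linker histone H1t, had no island, and neither did H1f2 (Hist1h1c), a linker gene used in most somatic tissues. The nearest H3K4me3 islands were 9.21 kb from H1f6 and 4.47 kb from H1f2. H1f2 and H1f4 were each other's most alike member by promoter, at 66.7% identity. That is near the median for the best match of a histone promoter, 64.7% (range 60 to 100%). Of the 36-base words of either promoter, 0% occurred in any other promoter of the table.

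Among the core families the shares marked were 11 of 18 for H2A, 12 of 18 for H2B, 7 of 12 for H3 and 7 of 13 for H4, and the median heights were 29, 28, 26 and 36. No family stood wholly with or without the mark. By the widest island at each gene, the highest core islands were those of H2ac21, H2ac20 and H2bc21 (99) and of H2aw (83). The H2B gene H2bc6, whose annotated model is 37455 bp long, also reaches under the island of H1f4 (117), but its widest island is another, with a height of 36. All marked H3 and H4 genes had heights of 48 or less. The lowest islands of the members lay at H4c2 (chr13:23756801-23758199, 1.40 kb, height 13), H2bc14 (17), H2bu2 (20), H2ac4 with H3c2 (21) and the 5 genes around H2bc8 (22). H4c2 stood above 5.69% of all H3K4me3 islands. The ranking of families is a description, since several genes of different families share 1 height.

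**Figure D2:**
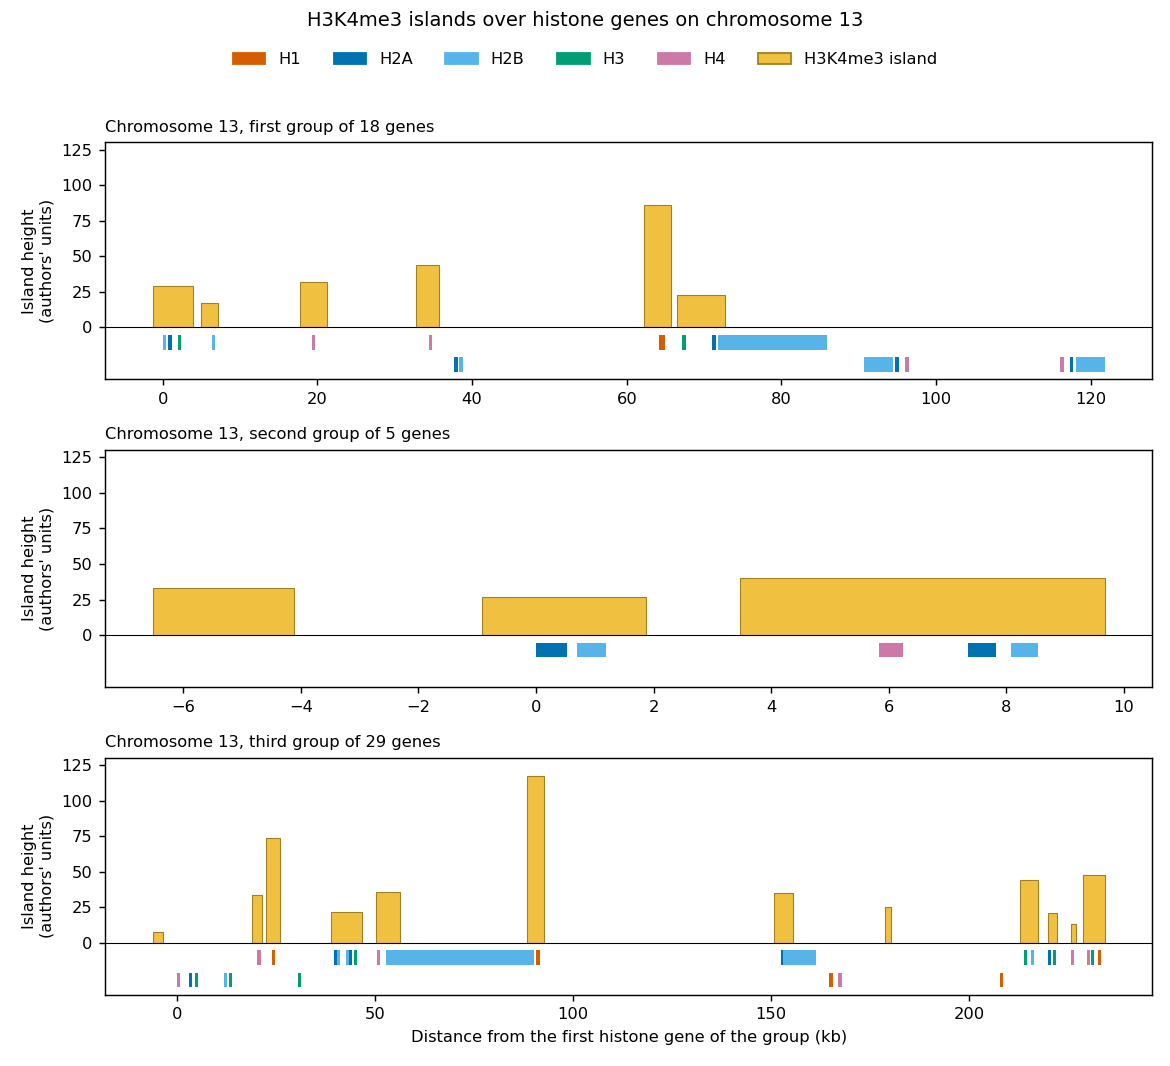
H3K4me3 islands (yellow, width to scale, height in the authors' units) along 3 groups of histone genes on chromosome 13, against distance from the first gene of each group in kb; coloured boxes are genes by family, in the upper row where marked and in the lower row where not, and small genes are drawn slightly wider than scale. A few islands without a histone gene beneath them are included. The second group is marked throughout, and the tallest bars of the outer panels stand at H1 genes, H1f5 at 86 and H1f4 at 117.

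The groups differed in how much of them was marked. All 5 genes of the second group on chromosome 13 had H3K4me3, under 2 islands with heights of 27 and 40. In the third group 20 of 29 genes were marked under 10 islands, and in the first group 10 of 18 under 6 islands. On chromosome 3, 4 of 10 genes were marked. The pair H2bc1 and H2ac1, whose older names mark them as testis histones, had neither mark, and the nearest H3K4me3 island was 168 kb from H2bc1. H4f16 (Hist4h4) on chromosome 6 also had neither, with the nearest H3K4me3 island at 3.37 kb.

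The 26 genes without H3K4me3 came in 8 runs of neighbours. The first group on chromosome 13 ended in a run of 6 (chr13:21806412-21837530, 31.1 kb): H2bc23, H2ac23, H4c17, H4c18, H2ac24 and H4bc24, 18.01 to 45.3 kb from the nearest island. Another 2 of that group, H2ac15 and H2bc15, lay 1.98 and 2.68 kb from the nearest island. The third group opened with a run of 5 (chr13:23531044-23544954, 13.9 kb), H4c8, H2ac10, H3c8, H2bc9 and H3c7, and also left out H3c6, H1f6, H4c3 and H1f2. On chromosome 3 the run of 6 comprised H2ac19, H2ac18, H3c14, H4c14, H3c13 and H2bc18 (chr3:96239779-96270192, 30.4 kb). Unmarked members thus included every family, and some runs lay between marked genes while others lay at the end of a group or alone. An island missing from the list is not read as absence of the mark.

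**Figure D3:**
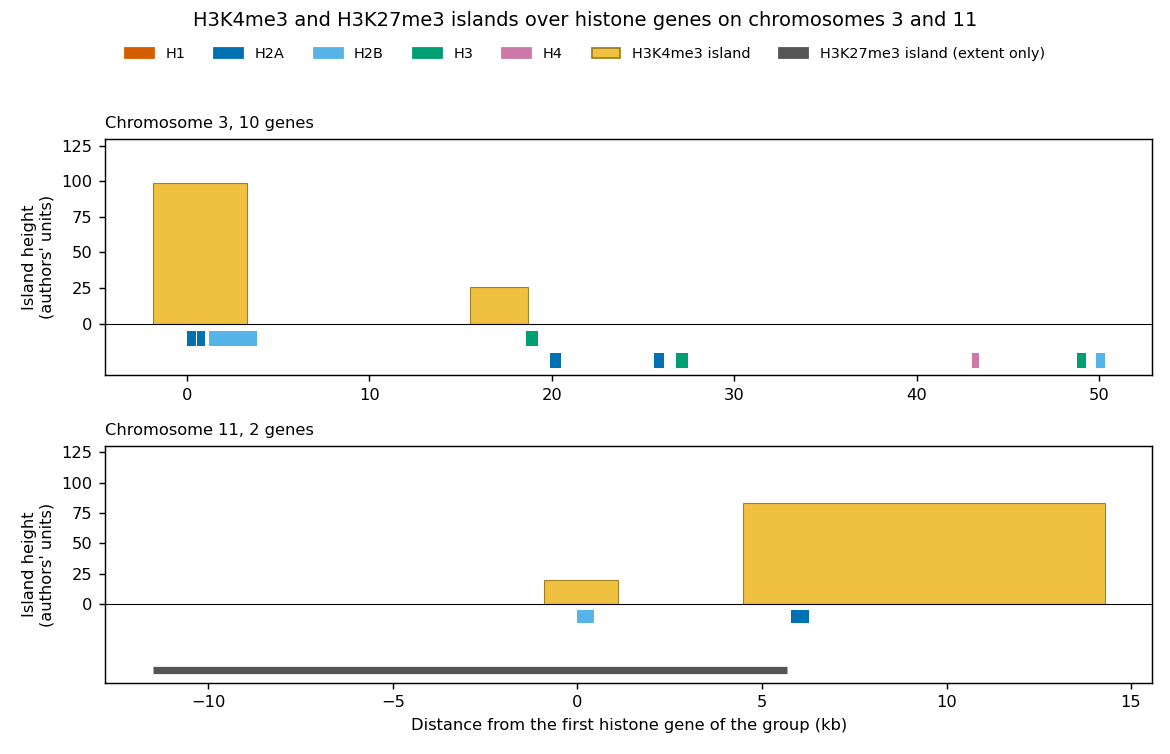
H3K4me3 islands (yellow, height in the authors' units) and the extent of the H3K27me3 island (grey line, no height) over the histone genes of chromosomes 3 and 11, against distance from the first gene in kb; gene boxes are drawn as marked (upper row) or not marked (lower row) by H3K4me3. On chromosome 3 the height falls from 99 at the first 3 genes to 26 beside H3c15, and 6 genes have no island; on chromosome 11 H3K27me3 spans H2bu2 and reaches up to H2aw.

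H3K27me3 was called at the Hist3 pair on chromosome 11 and at no other member. A single H3K27me3 island (chr11:58937401-58954599, 17.2 kb, height 27) covered H2bu2 (Hist3h2ba) wholly and ended 86 bp before the start of H2aw (Hist3h2a). Its height stood above 80.4% of all H3K27me3 islands. H2bu2 had a low H3K4me3 island of 2.0 kb (height 20) inside the H3K27me3 island. H2aw lay under 9.80 kb of H3K4me3 (height 83), whose summit was 99 bp from its start and also inside the overlapping gene Trim17, so the 2 genes cannot be told apart there. On the gene alone, without 1 kb either side, H2bu2 remained with H3K27me3 and H2aw did not. Of members with H3K4me3, 2 of 41 (4.88%) had H3K27me3 as well, against 31.4% of all genes with H3K4me3. On chromosome 13 the nearest H3K27me3 island was between 12.7 and 284 kb from each member, with a median of 158 kb.

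Reads from sequence that occurs at several sites cannot be placed at 1 of them, so the sequence that promoters share was counted. Promoters were listed for 62 of the 67 genes. For 10 genes more than 50% of the 36-base words of the promoter were also found elsewhere among all promoters in the table, and 9 of these 10 had no H3K4me3 island: H2ac19, H2ac18, H3c14, H2bc23, H2ac23, H4c17, H4c18, H2ac24 and H4bc24. The promoters of H2bc23 and H4bc24 were identical, those of H4c17 and H4c18 were 99.3% identical, and those of H3c14 and H3c15 94.7%. H3c15 was the 1 marked gene of the 10, through an island (height 26) that ended within the gene and covered 42.3% of its window but did not reach its promoter. Among all protein-coding genes, 4.01% of the 823 with such promoters had H3K4me3 on the promoter, against 64.9% of the 15328 with no repeated word. The part of repeated sequence in the missing islands was not tested.

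Repeated promoter words were not found at the other unmarked genes with a listed promoter. The words were sought among the promoters of the table only, so 0% does not show that a sequence occurs once in the genome. Of 48 members with 0% repeated words, 33 (68.75%) had H3K4me3 and 15 did not. Those 15 were H1f2, H1f6, H2ac1, H2ac10, H2ac15, H2bc1, H2bc9, H2bc15, H2bc18, H3c6, H3c8, H3c13, H4c3, H4c8 and H4f16. The median height of the 33 was 29, against 114 at all protein-coding promoters with no repeated word. The range of the 33 was 13 to 117, that of all marked members. H4c14 and H3c7, which were not marked, had no promoter in the table. The coding parts of the genes, which are alike within a family, were not analysed here, and their part in the heights was not tested.

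**Figure D4:**
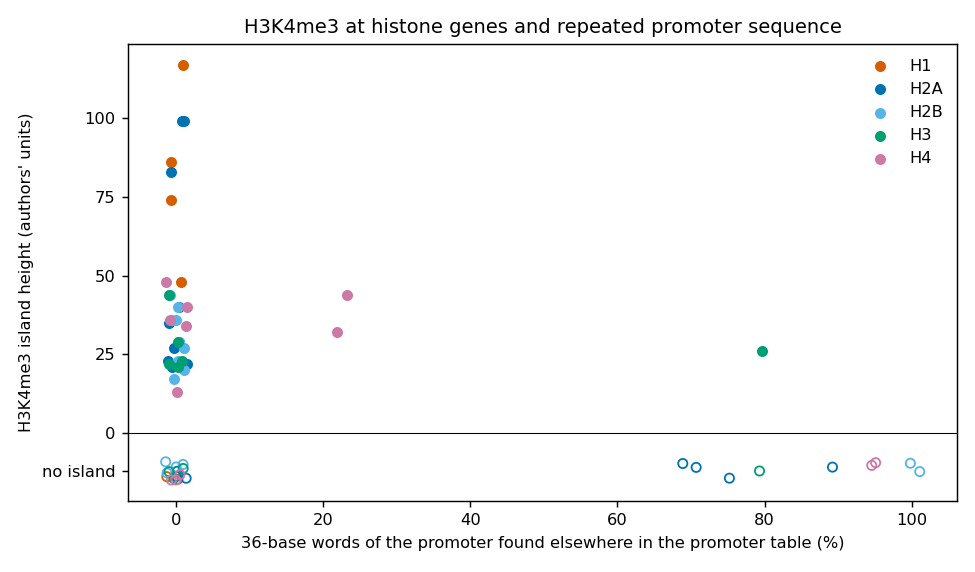
Height of the widest H3K4me3 island at each gene (authors' units), drawn for 63 promoters of 62 histone genes. The other axis is the share of 36-base promoter words found elsewhere in the promoter table. The island need not lie on the promoter drawn. Open circles below the line have no island. Points are spread by up to 1.5 percentage points sideways and at random within the band of open circles. The 10 genes over 50% include 1 with an island, at height 26, while those at 0% include genes with and without islands.

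Histone promoters carried the elements known from these genes, in marked and unmarked members. CCAAT was found in 54 of 63 promoters (85.7%), against 38.5% of all 21045 promoters of protein-coding genes of the same length. TATAAA was found in 35 (55.6%, against 12.7%) and the octamer ATTTGCAT, whose reverse form is ATGCAAAT, in 14 (22.2%, against 1.68%). The octamer was found in H2A (7 of 18) and H2B (7 of 17) promoters and in 0 of the H1, H3 and H4 promoters. CCAAT was found in all H1, H2A, H2B and H3 promoters and in 3 of 12 H4 promoters. Promoters of genes with H3K4me3 held CCAAT in 87.2% and those without in 83.3%. TATAAA was found in 28 of 39 promoters with H3K4me3 and in 7 of 24 without, 4 of 4 and 0 of 2 among H1 promoters. Only these exact letters were counted, at any place in the promoter, so other forms of the TATA box were left out. The unmarked H1f2 and H1f6 hold TATATA shortly after CCAAT, where H1f4 holds TATAAA. These counts therefore do not show which promoters lack a TATA box. H2ac1, which was not marked, held 4 CCAAT, 2 TATAAA and 1 octamer, and H2ac12, which was, held 3, 1 and 1, as the sequences above show. A match of these letters is a description and says nothing on binding.

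Genes of the machinery that makes, cuts and handles histone messages had higher H3K4me3 islands than the histone genes themselves. Of 21 such factors, 20 had H3K4me3 (95.2%, against 62.7% of all protein-coding genes), with a median height of 148 and a lowest of 55. Npat, the activator of the clusters, had a height of 134, Casp8ap2, which encodes FLASH of the histone locus body, 179, Lsm11 of the U7 particle 165, and Hinfp, an H4 gene activator, 188. Slbp, which encodes the stem-loop binding protein, was the exception with no island, the nearest being 9.06 kb away (height 166). H3K27me3 was found at 1 of the 21 (4.76%, against 25.2% of all protein-coding genes), Sympk, a cleavage factor gene (height 57).

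All 16 histone chaperone genes had H3K4me3 (against 62.7% of all protein-coding genes), with a median height of 149.5 and a lowest of 99 at Ssrp1. The chromatin assembly gene Chaf1b stood at 154 and Nasp, a chaperone of H3 and H4, at 204. H3K27me3 was also called at Atrx (height 7) and Ssrp1 (height 9), 12.5% of the 16, against 25.2% of all protein-coding genes. All 11 listed histone variant genes outside the Hist1 to Hist4 groups had H3K4me3 and none had H3K27me3, against the same shares of all genes, 62.7% and 25.2%. Their heights ran from 116 at H2az2 to 203 at H1f10, with H3f3a at 199 and H3f3b at 198. The lowest variant gene therefore stood within 1 unit of H1f4, the highest of the members, and above the other 40 marked members by their widest islands.

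Genes of DNA replication had H3K4me3 at 29 of 30 (96.7%, against 62.7% of all protein-coding genes). Their median height was 110 (range 41 to 180). The median equalled that of all marked genes, and 40 of 41 marked histone genes had heights below 110 as well. Mcm4 had neither mark, and Cdc45, Pola1 and Pole had both. An island anywhere over the gene or its 1 kb either side counts, so the marks need not overlap. At Pola1 there were 7 H3K27me3 islands, the widest of 30.2 kb, and 1 H3K4me3 island of 2.60 kb. H3K27me3 thus lay at 3 of the 30 (10%), against 25.2% of all protein-coding genes. These lists were chosen with earlier results on the same libraries known, and their differences from the histone genes were not tested.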

How the data were processed

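The submitters' processing notes name BWA, SICER (which joins enriched windows into islands) and the build mm10. For SICER and BWA neither version nor settings are stated in the labels or headers. The authors deposited, per the file headers, a track of islands and a track of summits for each mark. The score values were deposited by the authors as the height at each summit, per the file headers, in whole numbers from 4 to 278 for H3K4me3 and from 6 to 119 for H3K27me3. Island edges fall on a grid of 200 bp, which limits the resolution. No read counts were used, so depth is unknown.

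Each island was paired with the summit inside it. Genes came from a RefSeq table of GRCm38.p6 (21631 protein-coding genes, chromosome Y left out). A gene was marked where an island overlapped it or 1 kb either side by at least 1 bp, and the widest such island gave its height and width. Where a gene model is long (H2bc6, 37455 bp; H2bc22, 14079 bp; H2bc4, 8282 bp), an island may lie far from the start. Promoters came from the RefSeq table and were aligned globally with Biopython 1.88. Words of 36 bases were counted at distinct positions on both strands. Overlap counting was tested on simulated islands. Tables were made with Python 3.11.15 and pandas 2.3.3, and exact intervals with SciPy 1.17.1. Members and lists were chosen with earlier results of these data known. The text names every member without H3K4me3 or with H3K27me3, those under islands of 3 or more members, the 5 highest and 5 lowest islands, and listed genes by the same marks; the other listed genes were chosen after their values were seen. Alternatives were other windows, coverage, islands with higher summits, merged islands, promoter windows and members with distinct promoters. With 1 library per mark there was no replicate to leave out. A gene examined with the cell type markers is not reported here.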

Additional observations from a re-analysis of the deposited data

How the results depend on the processing

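No paired analysis was possible because each mark has 1 library. Windows of 500 and 2500 bp, the 300-base promoter, the gene ends (chosen after seeing the data), islands merged within 1000 bp, and leaving out the 4 members with promoters 95% or more identical to another's kept all counts within 1.5 times of those reported, and the median height between 32 and 36. Taking the highest in place of the widest island left the median height at 34 and the median width at 5.20 kb. With the gene alone, or with 50% of the window covered, 1 gene carried H3K27me3 and 1 carried both marks. With the islands of higher summits, which by construction drop low islands, 5 genes carried H3K4me3, under 2 islands that both spanned 2 or more members, and the median height was 99. There, 5 genes carried H3K4me3 only, 0 both marks, 2 H3K27me3 only and 60 neither. Depth is unknown, so a low island may be missing where a library was shallow.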

Other observations

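Between the first and the last histone gene of chromosome 13 lie many transfer RNA genes, and 26 H3K4me3 islands in the 2 gaps around the second histone group lay at no histone gene, of which 21 were within 1 kb of a transfer RNA gene. Of 77 transfer RNA genes in this stretch, 46 (59.7%) had H3K4me3, with a median height of 27, against 195 of 408 (47.8%) with a median of 76 in the genome. H3K27me3 lay at 24 of the 77 (31.2%), against 12.3% of all transfer RNA genes, although no histone gene of chromosome 13 carried it. The 46 genes shared 21 H3K4me3 islands and the 24 shared 6 H3K27me3 islands, so the genes do not give separate values. The 77 are also part of the 408, so the shares are not set against other transfer RNA genes alone. The widest of the H3K27me3 islands, 30.2 kb (chr13:21992201-22022399, height 55), lay at Prss16, a thymus protease gene, and at 5 transfer RNA genes.

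The protein-coding neighbours differed by family. All 36 Vmn1r genes, which encode pheromone receptors of the vomeronasal organ, and all 4 Slc17a transporter genes had neither mark. The zinc finger genes Zfp184 (height 98) and Zfp322a (110), and Abt1 (138), had H3K4me3 only. Hfe, an iron regulator gene inside the third histone group, had a low island (25). The histone pseudogenes H2ac14, H2ac5-ps and H2bu1-ps each lay wholly under an H3K4me3 island of a neighbouring member.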
